A study of Mus musculus with 6 samples.

Results

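The collagen crosslinking and folding enzyme genes described here are the 10 genes Lox, Loxl1, Loxl2, Loxl3, Loxl4, Plod1, Plod2, Plod3, P4ha2 and Serpinh1, chosen by gene name from the 21686 genes of the deposited table. RNA was sequenced from MC3T3-E1 Subclone 14 cells, a clonal mouse line of osteoblast precursors derived from calvaria. The control group received 100 µL of PBS, the dexamethasone group received 10 µM dexamethasone, and the dexamethasone + EPC-EVs group received 10 µM dexamethasone together with 100 µg of extracellular vesicles from bone marrow endothelial progenitor cells of mice. All 3 groups were kept in culture for 72 hours, and each holds 2 libraries. Dexamethasone is a synthetic glucocorticoid. All sequenced cells came from the same clonal line.

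Fibrillar collagen is made as a procollagen chain that is modified in the endoplasmic reticulum before it folds into a triple helix. Prolyl 4-hydroxylases hydroxylate prolines and so stabilise the helix at body temperature, lysyl hydroxylases hydroxylate the lysines that later enter crosslinks, and the chaperone HSP47 binds the folded helix and escorts it toward the Golgi. After secretion, copper-dependent lysyl oxidases convert lysines and hydroxylysines to aldehydes, which condense into the covalent crosslinks that give bone collagen its strength. Loss of several of these enzymes in people causes brittle bone or connective tissue disease.

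Adding EPC-EVs to dexamethasone was accompanied by higher RNA of Loxl1, Loxl3, Plod1, Plod3 and Serpinh1 and by lower RNA of P4ha2, while Lox itself, the main lysyl oxidase of these cells, was not called. Plod3 and Loxl1 stood 2.68-fold and 2.88-fold above the dexamethasone group, and P4ha2 stood 3.26-fold below it. The rises of Plod3 and Loxl1 came to 1.71-fold and 1.58-fold in a fit that removed a trend with GC content and length. Dexamethasone alone gave no called change in any of these genes, and only 0.0544% of all genes tested were called in that comparison. Plod3 was called when no filter on low counts was set. Without control replicate 1, 6 were called higher, beside 9.25% of all genes. Loxl2 was at the limit of detection throughout.

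The promoters of P4ha2 and P4ha1, which were lower with EPC-EVs, and of Serpinh1 and Plod1, which were higher, are shown so that both directions can be set side by side, each as the 250 bases before the RefSeq start, in build GRCm38.p6 and read on the strand of the gene. RefSeq promoter entries were found for 5 of the 10 genes, namely Loxl4, Plod1, Plod3, P4ha2 and Serpinh1, and for P4ha1, the other main prolyl 4-hydroxylase gene, which fell alongside P4ha2. The windows of Plod3 and Loxl4 overlap annotated exons and are not printed. Capitals mark the letters ACGTG or GCGTG on either strand, the cores of hypoxia response elements, because prolyl and lysyl hydroxylase genes are textbook targets of the hypoxia-inducible factors. P4ha2 lies on chr11:54100674-54100923, plus strand, inside an intron of the longer annotated gene, and P4ha1 on chr10:59323046-59323295, plus strand. Serpinh1 lies on chr7:99353240-99353489, minus strand, and Plod1 on chr4:147936777-147937026, minus strand.
P4ha2: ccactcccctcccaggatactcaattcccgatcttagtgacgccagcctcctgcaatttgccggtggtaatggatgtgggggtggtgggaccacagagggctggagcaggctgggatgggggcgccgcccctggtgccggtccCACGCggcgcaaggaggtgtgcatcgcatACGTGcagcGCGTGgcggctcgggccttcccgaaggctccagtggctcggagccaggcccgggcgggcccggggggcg
P4ha1: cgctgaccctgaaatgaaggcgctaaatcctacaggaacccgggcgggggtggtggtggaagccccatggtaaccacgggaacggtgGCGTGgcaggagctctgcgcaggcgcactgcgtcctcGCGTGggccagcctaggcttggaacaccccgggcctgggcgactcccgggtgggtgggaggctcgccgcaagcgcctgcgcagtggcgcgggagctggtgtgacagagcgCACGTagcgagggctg
Serpinh1: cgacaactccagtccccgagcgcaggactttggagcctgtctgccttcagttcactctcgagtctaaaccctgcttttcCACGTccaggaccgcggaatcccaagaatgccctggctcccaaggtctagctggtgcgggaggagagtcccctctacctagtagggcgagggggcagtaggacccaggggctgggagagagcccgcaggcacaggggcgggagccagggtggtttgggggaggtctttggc
Plod1: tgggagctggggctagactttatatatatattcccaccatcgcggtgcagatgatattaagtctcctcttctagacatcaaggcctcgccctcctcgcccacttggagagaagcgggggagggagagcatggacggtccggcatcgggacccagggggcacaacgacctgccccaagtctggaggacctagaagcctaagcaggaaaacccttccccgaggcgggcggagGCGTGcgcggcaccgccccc

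The windows of P4ha2 and P4ha1 held 3 such cores each, Plod3 held 4, and Serpinh1, Plod1 and Loxl4 held 1 each. Among 32851 RefSeq promoters cut to the same length, 38.6% held at least 1. Those promoters were not matched for GC content, which was 55.6% (Plod3) to 76% (Loxl4) in the windows searched here, so the shares cannot show enrichment. The ACGTG form occurred in 16.6% and the GCGTG form in 28.2% of all promoters, counted on both strands, and no matches overlapped in the printed windows. A match is a description of letters and not of a factor at work.

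The libraries differed in depth and make-up in ways that ran along with the groups. Total counts were between 5146760 and 6583735 without EPC-EVs and reached 12864009 and 13182014 with them. Mitochondrially encoded genes held 5.55% to 8.62% of the counts in the former and 0.465% and 0.727% in the latter. The gene with the most counts was mt-Co1 in the former, at 2.80% to 3.72%, and Gm26917 in the latter, at 5.88% and 6.69%. The mean GC content of the counted genes, weighted by their counts, was 47.9% to 49.3% in the former and 51.6% in both of the latter. Their part in the results was not tested beyond an alternative fit added after seeing the data, in which a loess trend on the GC content and length of transcripts was removed from every library, and values from it stand beside many of the results. Among the 10 genes, Loxl1 and Plod3 have a GC content of 61.0% and 57.8% and Lox and Plod2 of 43.9% and 43.0%, and the median of all genes is 48.7%. Osteoblast markers summed to 11537 to 15244 CPM (counts scaled to library size) over all 6 libraries, nearly all of it from Spp1 and Col1a1. Runx2, the osteoblast master regulator, held 152 to 202 CPM, whereas the later markers Alpl, Bglap and Ibsp held at most 17, 83 and 26 counts in any library. Not all later markers were low. Dmp1 held a mean of 245 CPM in control, 341 in dexamethasone and 82.2 with EPC-EVs, and Phex held 27.3, 21.5 and 5.85.

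Levels are given as FPKM, the deposited values scaled to gene length and library total, which allows genes to be compared per length. Lox and Serpinh1 were the most abundant of the 10 genes in every group and Loxl2 the least. In control the order was Lox, Serpinh1, P4ha2 and Plod2, of which only Lox and Serpinh1 had overlapping libraries. Loxl3, Plod3, Loxl1, Loxl4 and Plod1 followed, each overlapping the next. In dexamethasone the order was Serpinh1, Lox, P4ha2, Plod2, Plod3, Loxl3, Loxl1, Loxl4 and Plod1, and only Loxl3 and Loxl1 overlapped. With EPC-EVs it was Serpinh1, Lox, Plod3, Loxl1, Plod2, Loxl3, P4ha2, Plod1 and Loxl4. There Plod3, Loxl1 and Plod2 overlapped their neighbours, as did P4ha2, Plod1 and Loxl4. P4ha2 thus moved from rank 3 in control and dexamethasone to rank 7, and Plod3 from rank 6 in control to rank 3. These ranks are by FPKM with no correction for GC content. With the GC and length trend removed, Plod3 and Plod2 rose 2.19-fold and 2.13-fold over control, so the place of Plod3 above Plod2 rests on leaving the trend in.

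**Figure D1:**
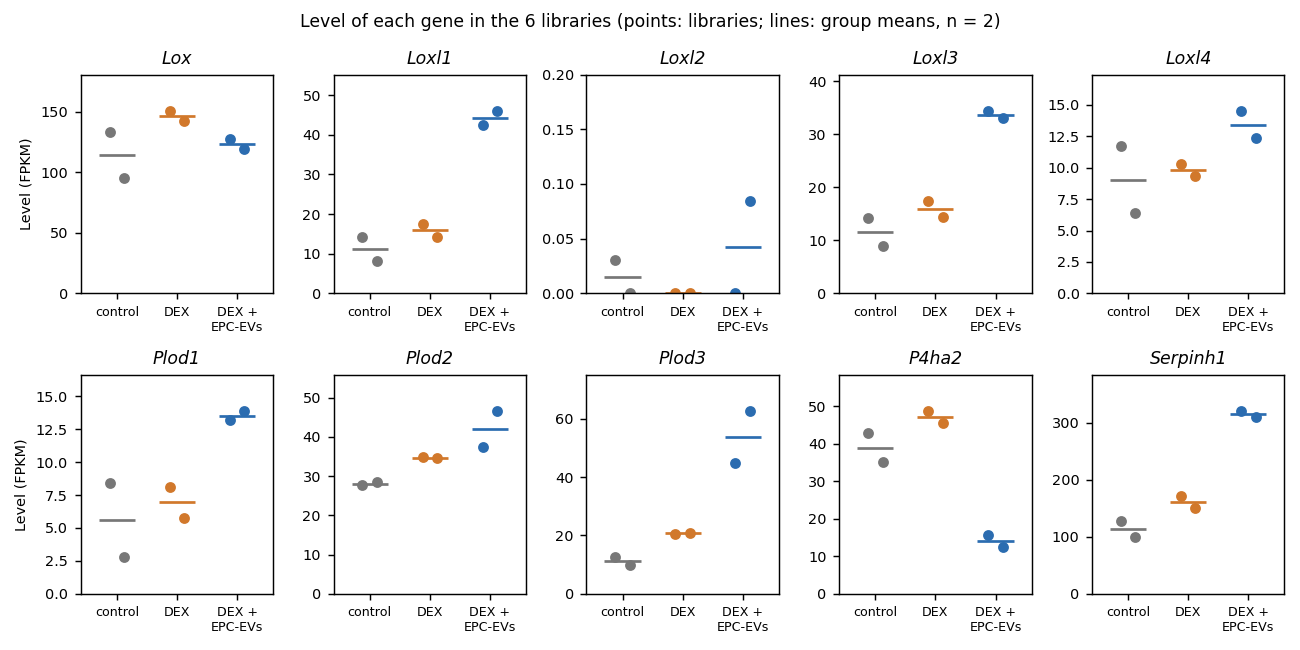
FPKM (vertical axes, each panel with its own scale from 0) of the 10 genes in the 6 libraries, with a point for each library and a bar at the mean of its group. Serpinh1, Plod3, Loxl1, Loxl3 and Plod1 are higher in both dexamethasone + EPC-EVs libraries than in the other 4, as are Plod2 and Loxl4, which were not called. P4ha2 is lower, and Lox overlaps the control group.

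The lysyl oxidases were examined first. Lox (chromosome 18) encodes the enzyme that crosslinks most fibrillar collagen. Its level was 133 and 95.2 FPKM in control, 151 and 142 in dexamethasone, and 127 and 119 with EPC-EVs added. The last 2 values fell between the control libraries and below both dexamethasone libraries. The log2 fold change with EPC-EVs was -0.20 (SE 0.112, 95% interval -0.45 to 0.04, edgeR adjusted p = 0.177), so a rise of the size seen in Loxl1 lay outside the interval. Its sign turned, to 0.15, with the GC and length trend removed. Against control the change was 0.09 (SE 0.194, edgeR adjusted p = 0.761), and it became 0.58 and was called without the trend (edgeR adjusted p = 0.0454). Lox shares 30 exonic bases with AC161119.1 on the other strand.

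Loxl1 (chromosome 9, 58287738 to 58313186, minus strand) encodes the oxidase best known for elastic fibres. It read 14.2 and 8.19 FPKM in control, 17.5 and 14.3 in dexamethasone, and 42.5 and 46.0 with EPC-EVs added. Both libraries with vesicles exceeded every other library. It was higher than in dexamethasone by 1.53 on the log2 scale (SE 0.162, edgeR adjusted p = 3.11e-05) and higher than in control by 1.96 (SE 0.270, edgeR adjusted p = 0.00123). Without the GC and length trend these became 0.66 (edgeR adjusted p = 0.00668) and 0.58 (edgeR adjusted p = 0.0542), and the call against control was lost.

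Loxl3 (chromosome 6, 83034173 to 83052562, plus strand), an oxidase needed for the palate and the spine, read 14.3 and 8.86 FPKM in control and 17.4 and 14.4 in dexamethasone. It reached 34.4 and 33.0 FPKM with EPC-EVs, above all 4 other libraries. The rise was 1.13 over dexamethasone (SE 0.151, edgeR adjusted p = 0.000158) and 1.52 over control (SE 0.246, edgeR adjusted p = 0.00238) on the log2 scale. The latter was 0.95 with the trend removed and stayed called. Loxl3 shares 535 exonic bases with Htra2 on the other strand. The paper's methods give a strand-specific setting for the alignment, but whether counting used strand is not given in the sources used here.

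Loxl4 (chromosome 19, 42593982 to 42612813, minus strand) read 11.7 and 6.36 FPKM in control, 10.3 and 9.39 in dexamethasone, and 14.5 and 12.4 with EPC-EVs added. The vesicle libraries exceeded the other 4, yet the log2 fold change over dexamethasone of 0.50 (SE 0.190, 95% interval 0.08 to 0.91) was not called (edgeR adjusted p = 0.0558). It was called with no filter (0.53, edgeR adjusted p = 0.0414) and when dexamethasone + EPC-EVs replicate 2 was left out (0.62, edgeR adjusted p = 0.0384), and its sign turned to -0.062 with the trend removed. Against control it was 0.55 (SE 0.302, edgeR adjusted p = 0.188), 1.07 and called without control replicate 1 (edgeR adjusted p = 0.00980), and -0.37 without the trend. Loxl2 (chromosome 14, 69609068 to 69695834, plus strand), which crosslinks basement membrane collagen, had 1 count in control replicate 1, 6 in dexamethasone + EPC-EVs replicate 2 and 0 in the other 4 libraries. A count of 0 allows up to 3 counts, so no fold is given, and the gene did not pass the filter of any comparison.

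The make-up of the lysyl oxidase family followed from these levels. Lox held 78.6% ± 2.41 (SD, n = 2) of the summed FPKM of the family in control, 77.9% ± 1.36 in dexamethasone and 57.4% ± 1.12 with EPC-EVs added. Loxl1 held 7.53% ± 0.885, 8.41% ± 0.708 and 20.6% ± 1.67 in the same order. Loxl3 went from 7.85% and 8.43% to 15.7%, whereas Loxl4 held 6.05%, 5.23% and 6.25%. The shares of Lox in the control and dexamethasone libraries overlapped, and those in both vesicle libraries were lower. These shares come from FPKM with no correction for GC content or length. The log2 fold changes of Lox and Loxl1 with the trend removed were 0.15 and 0.66 over dexamethasone and 0.58 each over control, so the lower share of Lox against control rests on leaving the trend in.

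Among the lysyl hydroxylases, Plod3 had the largest log2 fold changes as counted. Plod3 (chromosome 5, 136987019 to 136996648, plus strand) encodes the isoform that also carries glycosyltransferase activity. Its level was 12.7 and 9.76 FPKM in control, 20.5 and 20.9 in dexamethasone, and 44.8 and 62.5 with EPC-EVs. The 3 groups did not overlap. The log2 fold change was 1.42 over dexamethasone (SE 0.172, edgeR adjusted p = 7.68e-05) and 2.23 over control (SE 0.241, edgeR adjusted p = 0.000512). With the trend removed these were 0.77 and 1.13, and both stayed called. Plod3 shares 529 exonic bases with Znhit1 on the other strand and 9 with the microRNA gene Mir702 on its own.

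Plod1 (chromosome 4, 147909753 to 147936767, minus strand), which hydroxylates lysines of the helix, read 8.44 and 2.81 FPKM in control, a wide spread, and 8.11 and 5.78 in dexamethasone. It read 13.2 and 13.9 FPKM with EPC-EVs, above all other libraries. The change was 1.01 over dexamethasone (SE 0.190, edgeR adjusted p = 0.00148) and 1.24 over control (SE 0.412, edgeR adjusted p = 0.0447) on the log2 scale. The latter rests on which control library is kept, at 2.26 without control replicate 1 and 0.69 without control replicate 2, and lost its call in 4 of the 15 alternatives. These were the trend removed (0.78, edgeR adjusted p = 0.129), upper quartile normalization (1.19, edgeR adjusted p = 0.0505), and limma on log2(FPKM + 1) (1.28, adjusted p = 0.0610) and on log2(FPKM + 0.1) (1.45, adjusted p = 0.0805). The former lost its call when all 6 libraries were fitted together (1.03, edgeR adjusted p = 0.0564).

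Plod2 (chromosome 9, 92542223 to 92608428, plus strand) encodes the hydroxylase of the telopeptide lysines, on which the stable crosslinks of bone depend. Its level was 27.6 and 28.6 FPKM in control, 34.8 and 34.7 in dexamethasone, and 37.3 and 46.6 with EPC-EVs added. The groups did not overlap, but the differences of 0.32 over dexamethasone (SE 0.145, 95% interval 0.0017 to 0.64, edgeR adjusted p = 0.102) and of 0.55 over control (SE 0.194, edgeR adjusted p = 0.0540) were not called. Both were called with the GC and length trend removed, at 0.71 (edgeR adjusted p = 0.00233) and 1.09 (edgeR adjusted p = 0.00241). The call against control was gained in 5 of the 15 alternatives, also with DESeq2 (0.54), without a filter (0.60), with all 6 libraries (0.57) and with the replicate number as a block (0.54, edgeR adjusted p = 0.0471), although the numbers did not pair the samples. The call over dexamethasone was also gained without dexamethasone + EPC-EVs replicate 1 (0.49, edgeR adjusted p = 0.00645). Plod2 shares 346 exonic bases with Gm38391 on the other strand.

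By deposited FPKM, Plod2 was the leading lysyl hydroxylase in the control and dexamethasone libraries and Plod3 in both vesicle libraries. The share of Plod2 in the summed FPKM of the family was 63.0% ± 9.05 (SD, n = 2) in control, 55.7% ± 1.13 in dexamethasone and 38.5% ± 0.920 with EPC-EVs added. That of Plod3 was 24.9% ± 1.65, 33.2% ± 1.24 and 48.9% ± 2.73. Plod1 held 12.1%, 11.1% and 12.6%. This exchange rests on leaving the GC and length trend in, since with it removed Plod2 and Plod3 rose by nearly the same amount, 0.71 and 0.77 over dexamethasone and 1.09 and 1.13 over control on the log2 scale.

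**Figure D2:**
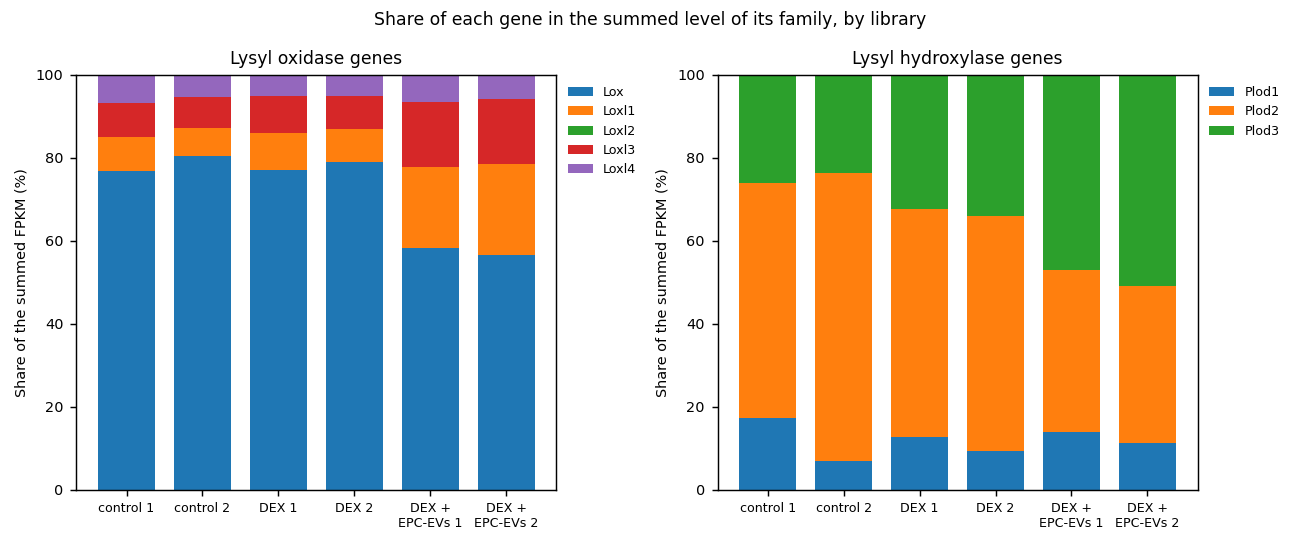
Share of each gene in the summed FPKM of its family (vertical axes, percent) in each of the 6 libraries, for the 5 lysyl oxidase genes and the 3 lysyl hydroxylase genes. Lox holds a mean of 78.6% in control and 57.4% with EPC-EVs, and Plod3 is above Plod2 in the vesicle libraries, by FPKM with no correction for GC content. With the GC and length trend removed, the log2 fold changes over dexamethasone were 0.71 for Plod2 and 0.77 for Plod3.

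P4ha2 (chromosome 11, 54100095 to 54131665, plus strand) encodes a catalytic subunit of prolyl 4-hydroxylase. It was the only one of the 10 genes called lower with EPC-EVs. Its level was 42.7 and 35.1 FPKM in control, 48.6 and 45.5 in dexamethasone, and 15.6 and 12.4 with EPC-EVs added. Both vesicle libraries lay below every other library. P4ha2 fell by 1.70 on the log2 scale against dexamethasone (SE 0.147, edgeR adjusted p = 8.04e-06) and by 1.50 against control (SE 0.202, edgeR adjusted p = 0.00113). These calls held under every alternative tried except the fold threshold of the study's methods against control, since that fall lay just inside a log2 change of 1.5, and the log2 fold changes were -1.96 and -1.97 with the trend removed.

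As counted, the partner genes of P4ha2 did not all move with it. P4ha1, the major catalytic subunit, read 119 and 118 FPKM in control, 138 and 131 in dexamethasone, and 61.0 and 54.4 with EPC-EVs added, a fall of 1.18 on the log2 scale against dexamethasone (SE 0.122, edgeR adjusted p = 2.67e-05). P4hb, the shared subunit also known as protein disulfide isomerase, read 361 and 330, 354 and 349, and 327 and 332 FPKM, with a log2 fold change of -0.05 (edgeR adjusted p = 0.756). P4hb was called lower with the trend removed, at -0.42 (edgeR adjusted p = 0.0107). P4ha3 read 33.1 and 35.2, 29.7 and 34.7, and 37.6 and 39.8 FPKM (log2 fold change 0.31, edgeR adjusted p = 0.122). With the trend removed it stood at -0.14 over dexamethasone and was not called. Against control in that fit, P4ha1, P4hb and P4ha3 were all called lower, at -0.79, -0.78 and -0.67 (edgeR adjusted p = 0.00539, 0.00637 and 0.0469). The ratio of P4ha2 to P4ha1 within a library was 0.359 and 0.298 in control, 0.353 and 0.347 in dexamethasone, and 0.255 and 0.228 with EPC-EVs added, and this difference in ratio was not tested.

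Serpinh1 (chromosome 7, 99345376 to 99353239, minus strand) encodes HSP47, the collagen-specific chaperone. Its level was 127 and 100.4 FPKM in control, 172 and 151 in dexamethasone, and 320.5 and 311 with EPC-EVs added. The 3 groups did not overlap. The rise was 1.01 over dexamethasone (SE 0.118, edgeR adjusted p = 5.86e-05) and 1.45 over control (SE 0.181, edgeR adjusted p = 0.00085) on the log2 scale. Removing the trend gave 0.41 (edgeR adjusted p = 0.0147) and 0.42 (edgeR adjusted p = 0.0616), and the call against control was lost. Serpinh1 and Lox had nearly equal levels in control, with a ratio of 0.953 and 1.05, whereas the ratio was 2.52 and 2.61 with EPC-EVs. These ratios come from FPKM with no correction for GC content. With the trend removed, the log2 fold changes of Serpinh1 and Lox were 0.41 and 0.15 over dexamethasone and 0.42 and 0.58 over control. The higher ratio against control thus rests on leaving the trend in.

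Of the 9 genes tested against dexamethasone, edgeR called 5 higher and 1 lower with EPC-EVs. Across all 13556 genes tested, 39.8% were called, 20.9% higher and 18.9% lower, so calls were common in this comparison. The median log2 fold change of the 9 genes was 1.01, beside 0.01 over all genes. With the trend removed the median was 0.66, beside 0.047 over all genes, and the calls were 6 higher and 1 lower, beside 32% of all genes, 16.7% higher and 15.3% lower. The libraries of the groups did not overlap for any of the 9 genes, 7 higher and 2 lower, beside 72.6% of all genes tested, 38.5% higher and 34% lower. Against control, 5 were higher and 1 lower, beside 36.4% called of 13511 genes, 19.1% higher and 17.2% lower, with a median of 1.24 beside 0.02. Removing the trend left 4 higher and 1 lower, beside 26% of all genes, 12.2% higher and 13.8% lower, with a median of 0.58 beside 0.016, and 2 of the 5 higher calls were kept. Here 8 of the 9 genes did not overlap between the groups, 7 higher and 1 lower, beside 73% of all genes, 39.1% higher and 33.9% lower. Both comparisons use the same dexamethasone + EPC-EVs libraries. A threshold from the study's methods asks for a log2 change of more than 1.5 together with an unadjusted p below 0.05. It kept 2 of the 9 genes against dexamethasone, Loxl1 and P4ha2, beside 14.2% of all genes, and 3 against control, Loxl1, Loxl3 and Plod3, beside 20.7%. In bulk RNA, fewer cells of a type and less RNA per cell cannot be told apart.

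**Figure D3:**
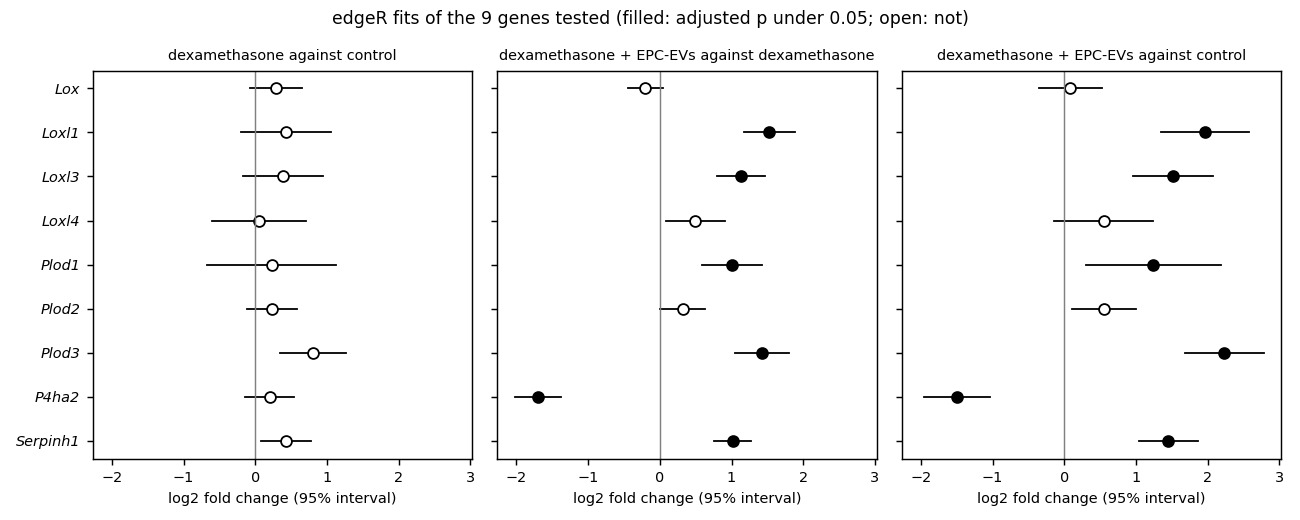
Log2 fold change (horizontal axes) of the 9 genes tested, with its 95% interval from edgeR, in the 3 comparisons, where filled points have an adjusted p under 0.05. No point is filled for dexamethasone against control, and P4ha2 alone is filled on the negative side in the other 2 panels.

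Dexamethasone alone was compared with control to see what the glucocorticoid did to these genes. None of the 9 genes tested was called by edgeR (adjusted p between 0.279 and 0.977), beside 0.0544% of the 12879 genes tested. At an unadjusted p under 0.05 there were 2 genes, Plod3 and Serpinh1, beside 10.9% of all genes. All 9 fold changes were positive, from 0.05 for Loxl4 to 0.81 for Plod3 (SE 0.208, edgeR adjusted p = 0.279), although those of Loxl1 and Loxl4 were -0.042 and -0.27 with the GC and length trend removed. The libraries of 5 genes did not overlap, all higher, beside 44.1% of all genes in either direction and 22.8% higher. The intervals were wide for some genes, for example -0.67 to 1.13 for Plod1. Control replicate 1 decided much of this result. Without it edgeR called 6 of the 9 genes higher in dexamethasone, namely Lox, Loxl1, Loxl3, Plod1, Plod3 and Serpinh1, beside 2200 of 13708 genes tested in either direction and 9.25% higher, whereas without control replicate 2 none was called and Loxl4 and Plod1 had negative fold changes. The fit without control replicate 1 assumes that the remaining control library varies like the dexamethasone libraries. Tsc22d3 and Fkbp5, classical glucocorticoid targets, were not called in dexamethasone against control (log2 fold change -0.09, edgeR adjusted p = 0.945, and 0.27, edgeR adjusted p = 0.789), but were higher with EPC-EVs than with dexamethasone alone, by 2.40 (edgeR adjusted p = 0.00275) and 0.73 (edgeR adjusted p = 0.0225). The call of Fkbp5 was lost without the trend (0.52, edgeR adjusted p = 0.0955). Of the 6 glucocorticoid targets tested, 4 were called higher with EPC-EVs than with dexamethasone and 0 lower, or 3 and 1 with the trend removed, beside 20.9% and 18.9% of all genes, or 16.7% and 15.3%. Dusp1, a phosphatase of MAP kinases, rose by 2.21 (edgeR adjusted p = 8.98e-06) and the kinase gene Sgk1 by 0.75 (edgeR adjusted p = 0.00299), and both stayed called without the trend. Klf9 (-0.19) and Per1 (0.08) were not called, and Per1 was the gene called lower without the trend (-0.64, edgeR adjusted p = 0.0177).

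The other genes of collagen biosynthesis were taken from lists by role. In the list of other hydroxylase and glycosylation genes, edgeR called 4 of the 9 tested genes higher and 1, P4ha1, lower with EPC-EVs than with dexamethasone, with a median of 0.31. The counts of this and the following lists stand beside 20.9% of all genes called higher and 18.9% lower, or 16.7% and 15.3% with the trend removed. The prolyl 3-hydroxylase complex rose in its parts P3h1 (1.04, edgeR adjusted p = 0.000589), its partner Crtap (0.87, edgeR adjusted p = 0.000817) and Ppib, a cyclophilin listed with the folding genes (0.63, edgeR adjusted p = 0.00501). P3h4, a scaffold of the lysyl hydroxylase 1 complex, rose from 24.6 and 22.4 FPKM to 66.6 and 74.6 (1.63, edgeR adjusted p = 1.49e-05). With the trend removed Crtap was no longer called (0.19, edgeR adjusted p = 0.379), P3h1 and P3h4 remained called at 0.49 and 0.84, and the list had 2 higher and 2 lower.

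Among other folding and secretion genes, 5 of the 17 tested were higher and 5 lower, with a median of 0.02, beside 0.01 over all genes. Fkbp10, which encodes the isomerase FKBP65 that works with HSP47 and with Plod2, rose from 23.4 and 26.5 FPKM to 100.4 and 109, by 2.11 on the log2 scale (SE 0.143, edgeR adjusted p = 1.68e-06). Kdelr2, a receptor that retrieves HSP47 from the Golgi, rose by 1.15 (edgeR adjusted p = 7.39e-05), and Fkbp14 by 0.70 (edgeR adjusted p = 0.01003). Of the general chaperones, Hsp90b1 fell by 1.44 (edgeR adjusted p = 0.00138), Calr by 1.15 (edgeR adjusted p = 1.77e-05) and Pdia3 by 1.02 (edgeR adjusted p = 6.64e-05). Hspa5, another general chaperone, had a log2 fold change of -0.36 and was not called, and Canx (-0.45) was called but stood at 0.04 and was not called without the trend. The list then had 5 higher and 4 lower, and Fkbp10 stood at 1.45.

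Genes that supply copper to the lysyl oxidases or hold them on the matrix gave 6 higher and 1 lower of 10 tested, with a median of 1.04. Postn, which encodes periostin and recruits BMP1 to the matrix, where it activates lysyl oxidase, rose from 136 and 155 FPKM to 1295 and 1546 (3.33, edgeR adjusted p = 7.06e-08, or 4.35 without the trend). Fbln5, a tether of LOXL1 on elastic fibres, rose by 1.69 (edgeR adjusted p = 0.000117). The copper chaperone Atox1 rose by 1.64 (edgeR adjusted p = 0.00126), a call lost with the trend removed (0.76, edgeR adjusted p = 0.0783). Atp7a, the copper pump of the secretory pathway, was the gene that fell, by 0.90 (edgeR adjusted p = 0.00112). In the propeptide list, Bmp1, the procollagen C-proteinase, rose from 12.3 and 11.5 FPKM to 24.6 and 21.5 (edgeR adjusted p = 0.00019) and its enhancer Pcolce by 0.78 (edgeR adjusted p = 0.000406), and the other 2 of the 4 tested genes were not called.

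The fibrillar collagens themselves, the substrates, had 6 of 8 tested genes called higher with EPC-EVs than with dexamethasone, with a median of 0.77, and the other 2, Col2a1 and Col5a3, were not called. Col1a2 rose by 1.89 (edgeR adjusted p = 1.42e-06) and Col1a1 by 1.51 (edgeR adjusted p = 1.16e-05), and Col5a2 by 0.85 (edgeR adjusted p = 0.00037). With the trend removed Col1a1 stood at 0.84 and was still called, and Col5a3 was called lower (-0.84, edgeR adjusted p = 0.000497). Set against the summed FPKM of Col1a1 and Col1a2, the summed lysyl oxidase FPKM was 33.2 and 20.5 per 100 in control, 31.8 and 26.3 in dexamethasone, and 9.80 and 12.1 with EPC-EVs added. By FPKM the vesicle libraries were thus below the others in oxidase RNA per collagen RNA. The mean summed oxidase FPKM itself was 146 in control, 188 in dexamethasone and 215 with EPC-EVs. The sum of P4ha1 and P4ha2 went from 31.0 and 26.3 per 100 in control and 30.2 and 25.8 in dexamethasone to 3.43 and 3.83. Serpinh1 per 100 was 24.3 and 17.3, 27.8 and 22.1, and 14.4 and 17.8, so that the control and vesicle libraries overlapped. These ratios are descriptions from FPKM with no correction for GC content, and were not tested. With the trend removed, the log2 fold changes of Lox, Col1a1 and Col1a2 were 0.15, 0.84 and 1.39 over dexamethasone. Over control they were 0.58, 0.59 and 1.24, and Col1a1 was then not called (edgeR adjusted p = 0.0692).

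**Figure D4:**
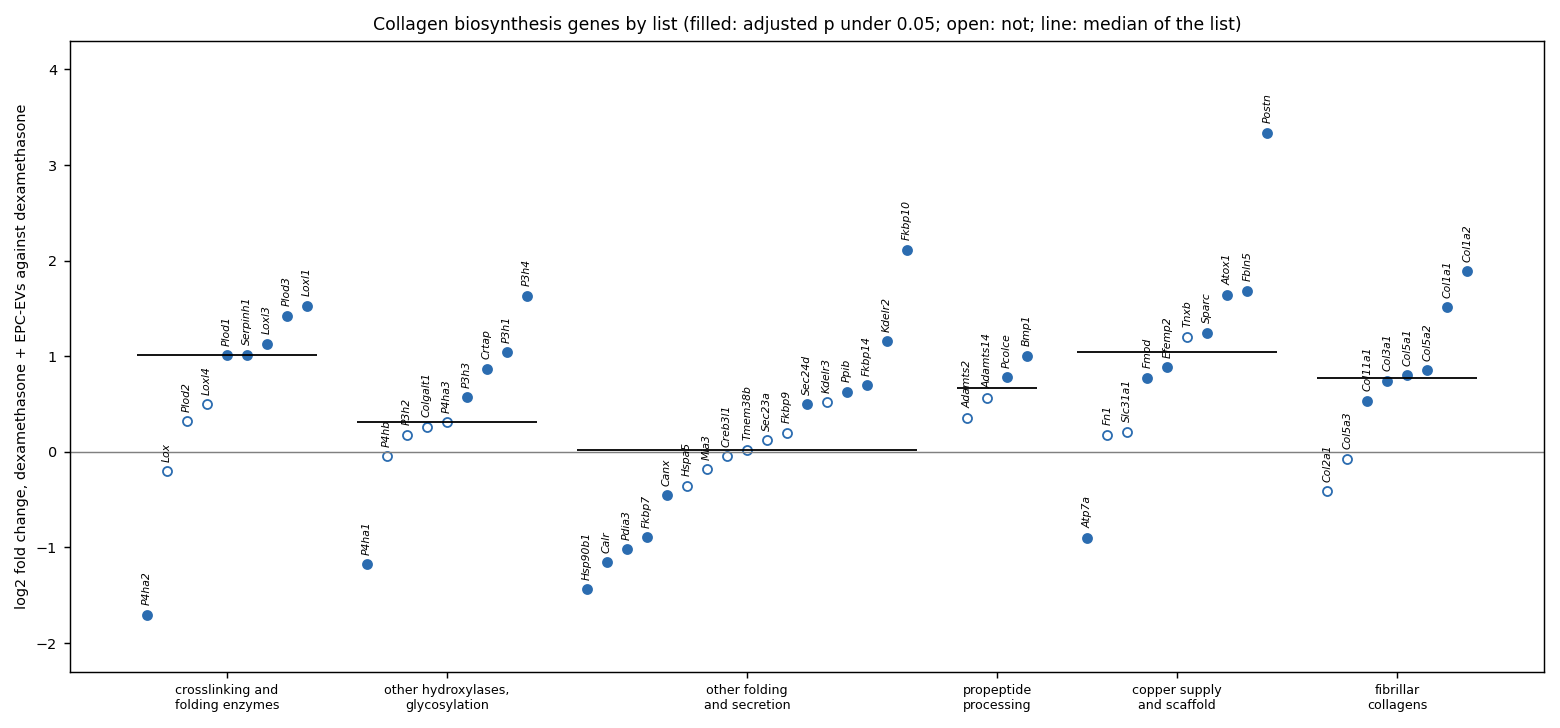
Log2 fold change of dexamethasone + EPC-EVs against dexamethasone (vertical axis) for the tested genes of the 6 lists, with a point for each gene, filled where the edgeR adjusted p is under 0.05, and a line at the median of each list. The medians lie at 1.01 for the crosslinking and folding enzymes, 0.31 and 0.02 for the other hydroxylases and other folding genes, 0.67 for propeptide processing, 1.04 for copper supply and scaffold genes, and 0.77 for the fibrillar collagens.

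In dexamethasone against control none of the genes in these 5 lists was called by edgeR. At an unadjusted p under 0.05 there were 1, 3, 0, 1 and 2 genes among the 9, 17, 4, 10 and 8 tested, in the order hydroxylases, folding, propeptide, copper and scaffold, and fibrillar collagens, beside 10.9% of all genes. Against control the vesicle group had 4 higher and 1 lower of 9, 6 and 4 of 17, 2 and 0 of 4, 6 and 1 of 10, and 6 and 0 of 8, beside 19.1% of all genes higher and 17.2% lower. With the trend removed the same lists had 1 higher and 3 lower, 6 and 4, 0 and 0, 5 and 1, and 4 and 1, beside 12.2% and 13.8%.

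Markers of other cell types were checked in the same libraries. The 8 endothelial markers in the table summed to 479 to 538 CPM in the control and dexamethasone libraries and 333 to 410 CPM with EPC-EVs, almost all of it Cd34 and Flt1, and the defining markers Cdh5, Emcn and Tek had at most 1, 6 and 8 counts in any library. Cd34 was called lower with EPC-EVs than with dexamethasone (-0.51, edgeR adjusted p = 0.00962) and than in control (-0.62, edgeR adjusted p = 0.0278), and stood at -0.11 and -0.095 and was not called without the trend. The 5 leukocyte markers in the table summed to 10.8 to 16.5 CPM in the former and to 31.5 and 72.0 CPM with EPC-EVs, with Csf1r at 471 counts in replicate 2 and 56 in replicate 1, and Adgre1 and Cd3e at 0 in both vesicle libraries. Csf1r was called higher than in control (4.25, edgeR adjusted p = 0.0259, or 3.65 without the trend) and was not called over dexamethasone (3.28, edgeR adjusted p = 0.0580). Cd14 read 10.3 and 7.36 CPM in control, 3.06 and 7.21 in dexamethasone, and 24.2 and 33.4 with EPC-EVs, higher than in dexamethasone by 2.44 on the log2 scale (edgeR adjusted p = 0.000537). Cd68 had a log2 fold change of -0.88 and was not called (edgeR adjusted p = 0.330), with 3.39 to 4.66 CPM without EPC-EVs and 2.85 and 1.65 CPM with them. The 3 adipocyte markers summed to 2.21 to 9.61 CPM without EPC-EVs and to 0.157 and 0.713 CPM with them, and Fabp4 was called lower than in dexamethasone (-3.76, edgeR adjusted p = 0.0107, or -3.31 without the trend). The 3 chondrocyte markers summed to 211 to 330 CPM and to 212 and 228 CPM, and Sox9 was called lower (-0.47, edgeR adjusted p = 0.0274, or -0.52 without the trend). Of the 8 osteoblast markers tested, 1 was called higher, the collagen gene Col1a1, and 2 lower. Spp1 and Phex were lower with EPC-EVs than with dexamethasone (log2 fold changes -1.06 and -1.92, edgeR adjusted p = 0.000155 and 0.00297), and stood at -0.45 and -1.19 without the trend, while Runx2 was not called (0.18, edgeR adjusted p = 0.311). Dmp1, a marker of mineralising cells, read 90.2 and 84.9 FPKM in control, 126 and 130.2 in dexamethasone, and 49.1 and 9.11 with EPC-EVs, and was not called (log2 fold change -2.10, edgeR adjusted p = 0.258). The part of these markers in the results was not tested.

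**Figure D5:**
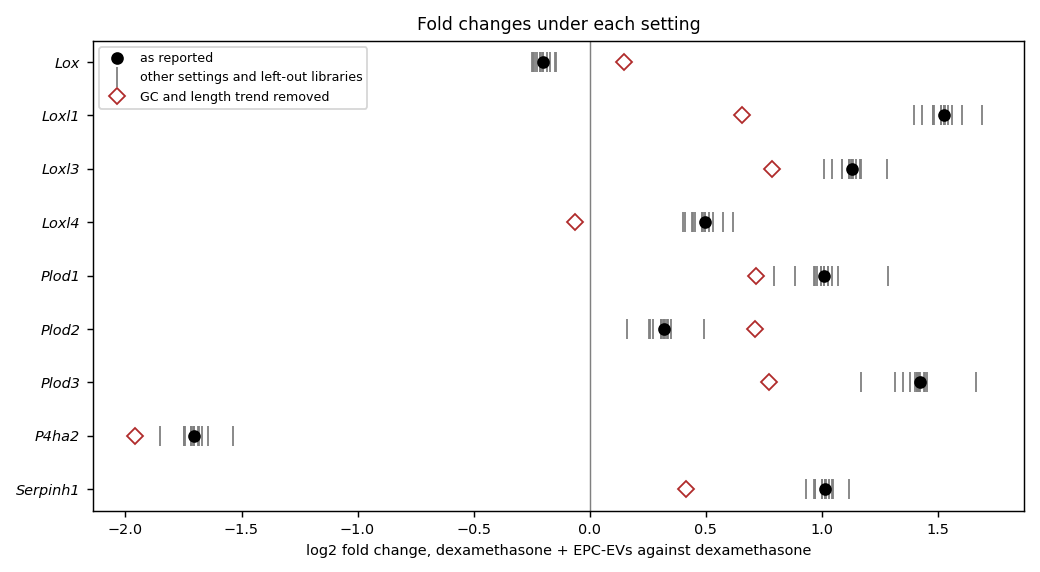
Log2 fold change of dexamethasone + EPC-EVs against dexamethasone (horizontal axis) for the 9 genes tested, with the reported value as a black point, the other settings and left-out libraries as grey ticks, and the fit with the GC and length trend removed as an open diamond. The diamonds of Lox (0.15) and Loxl4 (-0.062) lie on the other side of 0 from the reported points, whereas that of P4ha2 (-1.96) lies farther from 0.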

How the data were processed

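RNA of the 6 libraries was counted on genes by the authors with HTSeq 0.6.1 after alignment with HISAT2 to GRCm38, and the counts were deposited without normalization. The methods describe the FPKM that the authors deposited as a sum over the transcripts of a gene. Recomputed here, the deposited values matched the count over a fixed length and the library total, within 0.1%, for all 18447 genes with counts in 2 or more libraries. The submitters' processing notes also name DESeq2 1.26.0. A transcript table of chromosome 1, which holds none of the 10 genes, was not used. The design text of the series names fibroblasts and another time, and the sample labels were followed. The paper's results text calls the 2 libraries of a group biological replicates, and p-values measure only the spread between them. Within each group the replicates differed beyond sampling noise (chi-square per degree of freedom 17.2, 7.27 and 22.1).

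Counts entered edgeR 4.0.16 under R 4.3.3 (TMM, filterByExpr, robust quasi-likelihood test, 4 libraries a comparison). Benjamini-Hochberg adjustment ran over every gene tested, with calls at an adjusted p under 0.05. The test was tested on simulated data. CPM use TMM over all 6 libraries. SE is the log2 fold change divided by the square root of F. Alternatives were other normalizations, DESeq2 1.42.0, limma 3.58.1 on log2(FPKM + 1), other filters, all 6 libraries, a replicate block, left-out libraries and the study's threshold. Removal of a loess trend (span 0.4) on GC content and length was chosen after seeing the data. Coordinates and exon overlaps are those of GENCODE vM21, in which 21646 of the 21686 genes were found. The 10 genes and the lists were chosen with earlier results of these data known. Beside the 10 genes, the text names up to 3 called rises and 3 called falls of each list with the largest changes, and partners fixed by name, including P4ha1, P4hb, Fkbp10, Bmp1, Col1a1, Tsc22d3 and Fkbp5. Hspa5, Canx, Col2a1, Col5a3, Klf9, Per1, Csf1r, Cd68 and Dmp1 were named after their values were seen. Counting error was limited by depth, with a count of 0 allowing 3 counts, 0.235 to 0.597 CPM.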

Additional observations from a re-analysis of the deposited data

How the results depend on the processing

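Of the fold changes of the 9 genes, 122 of 135 alternatives in dexamethasone against control, 128 of 135 in dexamethasone + EPC-EVs against dexamethasone and 120 of 135 in dexamethasone + EPC-EVs against control kept both direction and side of the threshold. The number of genes called in dexamethasone against control, 7, was 134 with DESeq2, 0 with limma on log2(FPKM + 1) and on log2(FPKM + 0.1), 248 without a filter, 1 without mitochondrially encoded genes, 17 with the GC and length trend removed, 182 under the study's threshold, and 9 to 2200 with a library left out (2200 without control replicate 1, 113 without control replicate 2 and 17 without dexamethasone replicate 2). Of the 9 genes, 0 were called there, 1 (Plod3, 0.81) without a filter and 0 to 6 with a library left out. Against dexamethasone, the 5397 calls became 1922 and the 6 calls of the 9 genes became 2 under the study's threshold, and 3250 to 4813 and 6 to 7 with a library left out (3250 without dexamethasone replicate 2). Against control, the 4916 calls became 2793 and the 6 calls became 3 under the study's threshold, and 3375 to 6231 and 6 to 7 with a library left out. With the GC and length trend removed, the sign turned for Loxl1 (-0.042) and Loxl4 (-0.27) in dexamethasone against control, for Lox (0.15) and Loxl4 (-0.062) against dexamethasone, and for Loxl4 (-0.37) in dexamethasone + EPC-EVs against control. Leaving out a library turned Loxl4 (-0.30 to 0.54) and Plod1 (-0.33 to 1.21) in dexamethasone against control, negative without control replicate 2 or dexamethasone replicate 1, and Lox in dexamethasone + EPC-EVs against control (-0.10 to 0.37), negative without control replicate 2. The cause was not tested.

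Replicate numbers did not pair the samples (correlations of the replicate differences 0.0620, 0.00718 and 0.0113). With the replicate number as a block, 43 genes were called in dexamethasone against control, 5366 against dexamethasone and 4679 in dexamethasone + EPC-EVs against control, and 0, 6 and 7 of the 9 genes. Levels from TMM CPM per kilobase moved by more than the SD for Plod2 (33.5) and Plod3 (19.9) in dexamethasone and Serpinh1 (324) in dexamethasone + EPC-EVs. Loxl2, with at most 6 counts in any library, did not pass the filter of the reported fits and was not tested there.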
